A study of Mus musculus with 4 samples.

Results

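AMP-activated protein kinase (AMPK) is the energy sensor of the cell. It is a heterotrimer of a catalytic α subunit, a scaffolding β subunit that can bind glycogen, and a γ subunit that binds AMP, ADP and ATP. The liver kinase B1 (LKB1), encoded by Stk11, and the calcium-dependent kinase CaMKK2 switch the trimer on by phosphorylating the activation loop of α. Active AMPK slows lipid and protein synthesis and favors fuel uptake, mitochondrial biogenesis and autophagy, and PGC-1α is among its known targets. In neurons, CaMKK2 links calcium entry to AMPK. The activity of the kinase is set by phosphorylation and nucleotide binding, which RNA-Seq does not measure, so the values below are mRNA levels only.

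The expression of 8 genes, Prkaa1, Prkaa2, Prkab1, Prkab2, Prkag1, Prkag2, Stk11 and Camkk2, was examined in RNA-Seq data of HT-22 cells, an immortalized line of mouse hippocampal neurons. The genes were chosen by name as the subunits and the main upstream kinases of AMPK, and transcripts were assigned to them by identifier in GENCODE release M21 on the mouse build GRCm38. Of the 8 genes, 7 had rows in the table analysed here, with 20 of its 25889 transcripts. These 7 were among the 10604 genes, of 11502 in all, whose summed level averaged at least 1 FPKM (fragments mapped per kilobase of transcript, scaled to library size) over the libraries. Prkaa2, which encodes the α2 catalytic subunit, had no row, and its level is not given here. All cells carried a lentivirus and had been selected with puromycin. Cells with negative control lentivirus (Ctrl, labelled wild type) and cells that overexpress PGC-1α from the lentivirus (PGC-1α) were each sequenced untreated and after oxygen-glucose deprivation (OGD), which gives the groups Ctrl, Ctrl+OGD, PGC-1α and PGC-1α+OGD. Deprivation was applied for 2 h in serum-free and glucose-free medium under 5% CO2 and 95% N2, and the cells then recovered for 24 h, so the OGD libraries show the recovered state.

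Each group had 1 library. Each library enters 2 of the 4 comparisons made here, so these share data. Differences between groups could not be set against the spread of replicates, no p value was computed, and the number of reads behind a value is unknown. Genes that differed by at least 1.5-fold on the log2(FPKM + 1) scale were counted. This scale understates the differences of low genes. In bulk RNA, fewer cells that express a gene and less RNA per cell cannot be told apart. The overexpressed gene, Ppargc1a, had a summed level of 0.900 FPKM in Ctrl, 0.103 in Ctrl+OGD, 35.1 in PGC-1α and 8.41 in PGC-1α+OGD. This follows the labels. Its level was lower in PGC-1α+OGD than in PGC-1α (log2 fold change -1.94). The comparisons of PGC-1α with control without and with OGD thus also differ in the level of Ppargc1a. The identity of the line as neuronal was less clear from the table. Of 12 neuronal markers only Camk2a had a row, at 4.40 to 7.31 FPKM, while 8 of 12 glial and fibroblast-like markers had rows. Those without a row were all glial, namely Gfap, Aqp4, Olig2 and Aif1, while the mesenchymal genes Vim, Col1a1, Col1a2 and Fn1 all had rows. Among the markers with rows, Vim, at 398 to 508 FPKM, and Col1a2, at 236 to 265 FPKM, were high. The astrocyte and microglia genes Slc1a3, at 0.137 to 1.09 FPKM, and Cx3cr1, at 0.0239 to 1.22 FPKM, averaged below 1 FPKM. From the same list, S100b was at 10.0 to 18.4 FPKM, above Camk2a, and Mbp was at 3.26 to 4.76 FPKM. Low levels were thus not shared by all glial markers with rows.

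The clearest feature of these genes lay in the transcripts of Stk11. The 4 Stk11 transcripts in the table differ in their ends. Stk11-201 has 10 exons and 436 codons, and Stk11-210 has 9 exons and 412 codons. Both share 1117 coding bases, up to the end of the eighth exon. Stk11-201 then continues into 2 more exons, of which the ninth adds 191 coding bases. Stk11-210 instead ends in an exon of its own of 122 bases, which adds 119 coding bases before the stop codon. The carboxy terminus encoded by the common last exons holds the farnesylation site of LKB1, by which the kinase attaches to membranes. Known splice forms of LKB1 differ in this terminus, and a short form is abundant in testis. The sequences at this branch point are shown because they separate the transcripts whose shares differed most. They give the last 30 bases of the shared exon (chr10:80128071-80128100, plus strand, GRCm38) in lower case and, in capitals, the first 120 bases of exon 9 of Stk11-201 (chr10:80129905-80130024) or the 119 coding bases of the last exon of Stk11-210 (chr10:80128391-80128509).
Stk11-201: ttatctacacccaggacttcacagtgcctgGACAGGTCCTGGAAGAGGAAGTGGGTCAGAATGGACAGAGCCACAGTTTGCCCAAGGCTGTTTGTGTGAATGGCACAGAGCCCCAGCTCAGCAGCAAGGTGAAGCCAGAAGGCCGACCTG
Stk11-210: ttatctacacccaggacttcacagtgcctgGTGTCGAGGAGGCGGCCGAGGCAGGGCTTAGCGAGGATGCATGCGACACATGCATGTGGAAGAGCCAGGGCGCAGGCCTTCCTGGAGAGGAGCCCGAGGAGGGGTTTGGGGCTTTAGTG

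**Figure D1:**
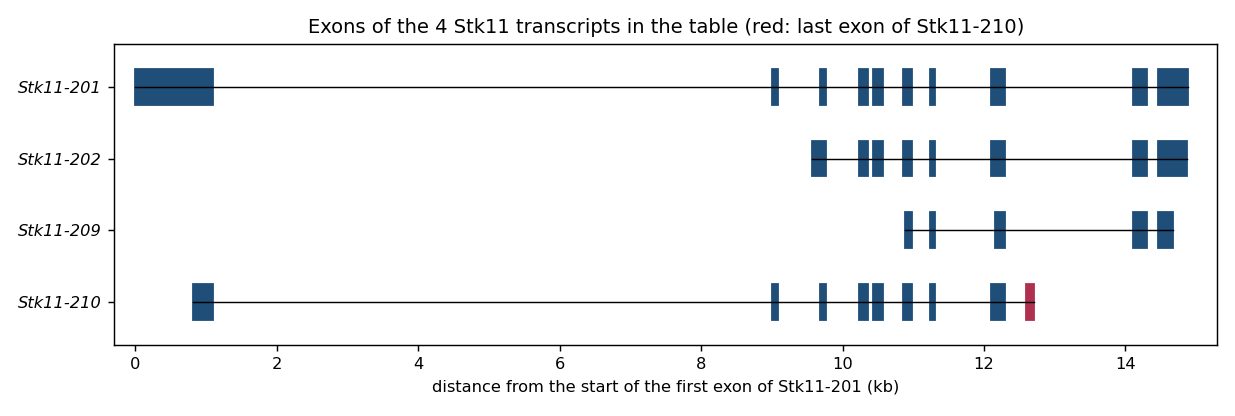
Exons of the 4 Stk11 transcripts in the table, drawn to scale as boxes along the distance in kb from the start of the first exon of Stk11-201, with lines for introns. Stk11-210, in the bottom row, leaves out the last 2 exons of the other 3 transcripts and ends in an exon of its own, drawn in red.

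In Prkag2, a junction of the transcripts differs by 3 bases. In Prkag2-210 the second exon begins 3 bases earlier than in Prkag2-203, which adds the 3 bases in capitals, without a shift of the reading frame, between the coding parts of exons 1 and 2 (chr5:24908323-24908349 and chr5:24889159-24889188, minus strand, GRCm38). The annotated Prkag2-210 is also cut short at its 3′ end, within the coding region, and is 890 bases long against 2205 for Prkag2-203. The junctions are shown because Prkag2-210 differed in level more than the other Prkag2 transcripts did.
Prkag2-203: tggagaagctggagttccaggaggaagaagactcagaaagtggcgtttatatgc
Prkag2-210: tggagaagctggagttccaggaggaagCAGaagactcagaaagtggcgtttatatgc

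Summed over their transcripts, Prkag2 and Prkab2 varied most among the 4 libraries, with the highest library 1.58 and 1.67 times the lowest, and the other 5 AMPK genes at most 1.30 times. In PGC-1α vs Ctrl, 0 of the 7 genes were past 1.5-fold, where 10.5% of all compared genes were. In PGC-1α+OGD vs Ctrl+OGD there were 0 against 6.90% of all genes. The comparison of Ctrl+OGD with Ctrl gave 0 against 13.9%, and that of PGC-1α+OGD with PGC-1α gave 0 against 9.03%. For 7 genes these shares come to less than 1 gene, so a count of 0 is near the background and does not show that the genes stayed the same. The median log2 fold change of the 7 genes was 0.08 in PGC-1α vs Ctrl and 0.03 in PGC-1α+OGD vs Ctrl+OGD, against -0.03 and -0.01 for all genes. It was -0.01 in Ctrl+OGD vs Ctrl and -0.09 in PGC-1α+OGD vs PGC-1α, against -0.02 and 0.00 for all genes. The range over the 4 libraries on the log2 scale had a median of 0.28 in the 7 genes and of 0.41 in all genes, and it was above the latter in Prkag2 (0.62) and Prkab2 (0.52). The median absolute log2 fold change of the 7 genes was below that of all genes in PGC-1α vs Ctrl (0.111 against 0.197) and Ctrl+OGD vs Ctrl (0.103 against 0.247). It was above that of all genes in PGC-1α+OGD vs Ctrl+OGD (0.187 against 0.133) and PGC-1α+OGD vs PGC-1α (0.194 against 0.174).

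**Figure D2:**
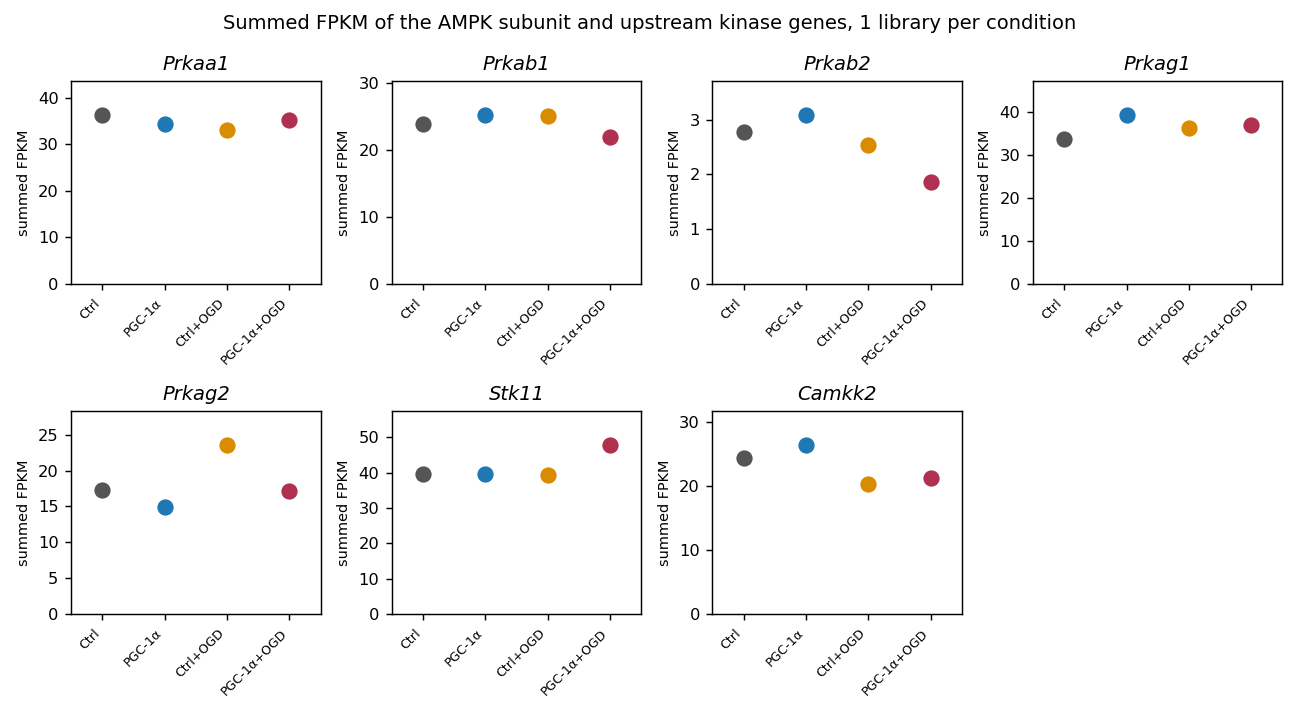
Summed FPKM of the 7 AMPK genes in the table, 1 panel per gene with an axis from 0 and 1 point per library. Prkag2 is highest in Ctrl+OGD at 23.5 FPKM, Prkab2 is lowest in PGC-1α+OGD at 1.85 FPKM, and Prkaa1 stays between 33.1 and 36.3 FPKM.

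**Figure D3:**
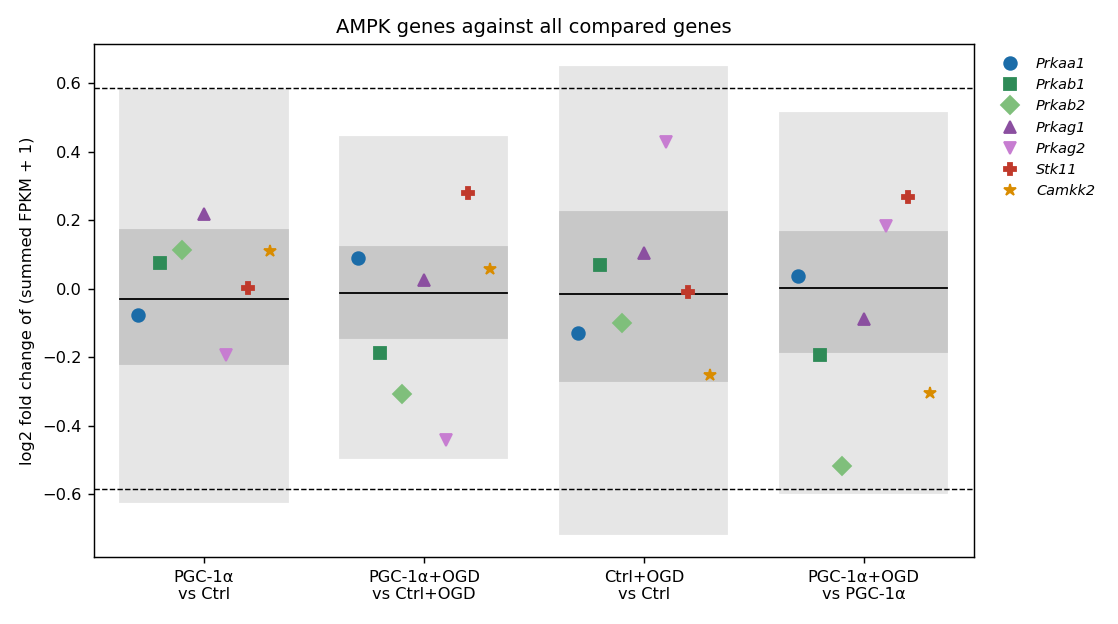
Log2 fold change of each AMPK gene in the 4 comparisons, over the middle 90% (light bar), the middle 50% (dark bar) and the median (line) of the 10604 compared genes. All 7 genes lie between the dashed lines at 1.5-fold and within the light bars, from -0.52 for Prkab2 in PGC-1α+OGD vs PGC-1α to 0.43 for Prkag2 in Ctrl+OGD vs Ctrl.

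By mean level, which is per length and can be compared between genes, the order was Stk11 (41.5 FPKM), Prkag1 (36.6), Prkaa1 (34.8), Prkab1 (24.0), Camkk2 (23.1), Prkag2 (18.2) and Prkab2 (2.56). The ranges over the 4 libraries overlapped between neighbors in this order, except between Prkaa1 and Prkab1 and between Prkag2 and Prkab2. The genes of the catalytic, β and γ subunits were thus each represented in the table by at least 1 gene above 20 FPKM in every library.

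Prkaa1 encodes the α1 catalytic subunit (ENSMUSG00000050697, plus strand of chromosome 15, from 5143861 to 5181899). It was at 36.3 FPKM in Ctrl, 33.1 in Ctrl+OGD, 34.4 in PGC-1α and 35.3 in PGC-1α+OGD. This was the narrowest range of the 7 genes, with the highest library 1.10 times the lowest. Its 2 transcripts have the same 9 exons apart from their outer ends, with 559 codons in Prkaa1-201 and 550 in Prkaa1-202. Prkaa1-202 held between 95.5% and 96.4% of the summed level in each library. Prkaa1 and the α2 gene Prkaa2 encode closely related kinases, but the longest run of bases that their transcripts share exactly is 35 bases, well below the read length.

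Prkab1 and Prkab2 encode the β1 and β2 scaffolds, which carry the glycogen-binding module and hold the trimer together. Prkab1 (ENSMUSG00000029513, minus strand of chromosome 5, from 116013586 to 116024508) was at 23.9 FPKM in Ctrl, 25.1 in Ctrl+OGD, 25.2 in PGC-1α and 21.9 in PGC-1α+OGD. The PGC-1α+OGD library was thus the lowest of the 4, and the other 3 lay between 23.9 and 25.2 FPKM. Prkab2 (ENSMUSG00000038205, plus strand of chromosome 3, from 97658193 to 97673812) was at 2.78 FPKM in Ctrl, 2.53 in Ctrl+OGD, 3.09 in PGC-1α and 1.85 in PGC-1α+OGD. This gene, too, was lowest in PGC-1α+OGD. Its level there was 0.600 times that in PGC-1α, a log2 fold change of -0.52 on the FPKM + 1 scale, and this difference was past 1.5-fold with a pseudocount of 0.1 (-0.71) or 0.01 (-0.73). At about 2 FPKM and without a read count, its precision is unknown. Prkab1 made up 89.6% of the β sum in Ctrl, 90.8% in Ctrl+OGD, 89.1% in PGC-1α and 92.2% in PGC-1α+OGD.

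The 2 Prkab1 transcripts encode the same number of codons, 270, and differ upstream of them, where Prkab1-202 has an intron in the first exon of Prkab1-201. Prkab1-201 held 73.8% of the summed level in Ctrl, 76.4% in Ctrl+OGD, 82.4% in PGC-1α and 75.5% in PGC-1α+OGD. It was the main transcript in all libraries, with its largest share in PGC-1α.

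Prkag1 and Prkag2 encode the γ1 and γ2 subunits, whose cystathionine β-synthase repeats bind adenine nucleotides. Prkag1 (ENSMUSG00000067713, minus strand of chromosome 15, from 98812797 to 98831521) was at 33.7 FPKM in Ctrl, 36.3 in Ctrl+OGD, 39.4 in PGC-1α and 36.9 in PGC-1α+OGD. In PGC-1α vs Ctrl it had the highest log2 fold change of the 7 genes, 0.22, while under OGD the value was 0.03. Prkag2 (ENSMUSG00000028944, minus strand of chromosome 5, from 24862744 to 25100642) was at 17.2 FPKM in Ctrl, 23.5 in Ctrl+OGD, 14.9 in PGC-1α and 17.1 in PGC-1α+OGD. Ctrl+OGD stood above the other libraries, and PGC-1α was the lowest. The γ1 share of the γ1 and γ2 sum was accordingly lowest in Ctrl+OGD, at 60.6%, against 66.1% in Ctrl, 72.5% in PGC-1α and 68.4% in PGC-1α+OGD.

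The difference of Prkag2 lay mostly in Prkag2-210, the transcript with the 3 added bases. It was at 6.18 FPKM in Ctrl, 10.5 in Ctrl+OGD, 4.52 in PGC-1α and 3.10 in PGC-1α+OGD, so its log2 fold change was 0.68 in Ctrl+OGD vs Ctrl, while that of PGC-1α+OGD vs Ctrl+OGD was -1.48. Prkag2-203 was at 10.9, 12.3, 10.4 and 14.0 FPKM in the same order, so that it was highest where Prkag2-210 was lowest. The remaining transcript, Prkag2-204, is an annotated fragment of 211 bases and stayed below 1 FPKM. With each transcript multiplied by its length before summing, a measure proportional to fragments, the log2 fold change of Prkag2 in PGC-1α+OGD vs Ctrl+OGD was -0.12 in place of -0.44. In Ctrl+OGD vs Ctrl it was 0.30 in place of 0.43. The genes whose summed pattern over the 4 libraries was most like that of Prkag2, the gene with the widest range, were Fgfr1op, Mllt11 and Lrwd1, with Euclidean distances of 0.05, 0.07 and 0.07 between centred log2 values. Fgfr1op, for example, was at 11.2 FPKM in Ctrl, 15.6 in Ctrl+OGD, 10.2 in PGC-1α and 11.4 in PGC-1α+OGD. With 4 libraries and 10604 genes such likeness is only a description.

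Stk11 (ENSMUSG00000003068, plus strand of chromosome 10, from 80115803 to 80130682) encodes LKB1, the kinase that phosphorylates the α subunit under energy stress. Its summed level was 39.5 FPKM in Ctrl, 39.2 in Ctrl+OGD, 39.5 in PGC-1α and 47.8 in PGC-1α+OGD. Ctrl, Ctrl+OGD and PGC-1α lay between 39.2 and 39.5 FPKM, and PGC-1α+OGD was higher by a log2 fold change of 0.28 against Ctrl+OGD and 0.27 against PGC-1α. The transcripts behind this sum differed much more. Stk11-201 was at 26.8 FPKM in Ctrl, 24.5 in Ctrl+OGD, 27.7 in PGC-1α and 4.73 in PGC-1α+OGD. Stk11-210 was listed at 0 in Ctrl+OGD, at 0.820 FPKM in Ctrl and 0.778 in PGC-1α, and at 29.6 FPKM in PGC-1α+OGD. The main transcript of the gene was therefore Stk11-201 in 3 libraries, with 62.4% to 70.0% of the sum, and Stk11-210 in PGC-1α+OGD, with 62.0%. The share of Stk11-201 in that library was 9.90%.

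Set against the other libraries, PGC-1α+OGD had a log2 fold change of Stk11-201 of -2.15 against Ctrl+OGD and -2.33 against PGC-1α, and that of Stk11-210 was 4.11 against PGC-1α. Of the 18301 transcripts with a mean of at least 1 FPKM, 1.84% were lower by at least as much as Stk11-201 in PGC-1α+OGD vs PGC-1α. Stk11-201 was singled out because it differed, so this share is only a description. No such share is given for Stk11-210, which reached that mean only through its level in PGC-1α+OGD. Differences of this kind were common in the table, however. Of the 6400 compared genes with 2 or more transcripts, 18.7% had another most abundant transcript in PGC-1α+OGD than in Ctrl+OGD, and 20.8% another than in PGC-1α. In PGC-1α vs Ctrl and in Ctrl+OGD vs Ctrl, 0 of the 5 AMPK genes with 2 or more transcripts had another main transcript, where 19.5% and 19.9% of the 6400 genes had. A transcript gained 50 percentage points or more of its gene in 6.71% and 7.47% of the genes with 2 or more transcripts, and Stk11-210 gained 62.0 and 60.0 points. Among the 5 AMPK genes with 2 or more transcripts, Stk11 was the only one whose main transcript differed in any library, where 33.5% of all such genes had such a difference. With only 5 genes, these counts are near the shares of all genes and show nothing particular to the AMPK genes.

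The 3 Stk11 transcripts that end in the common last exons, Stk11-201, Stk11-202 and Stk11-209, summed to 38.7 FPKM in Ctrl, 39.2 in Ctrl+OGD, 38.8 in PGC-1α and 18.2 in PGC-1α+OGD. Stk11-202, which begins within the second intron of Stk11-201, was at 10.4, 12.2, 8.80 and 10.1 FPKM in the same order. The short Stk11-209 stayed between 1.43 and 3.35 FPKM. Because Stk11-210 is annotated with 1239 bases and Stk11-201 with 2566, the direction of the sum depends on the transcript lengths. With FPKM multiplied by length in kb, which removes the scaling to transcript length, the sum was 86.2 in Ctrl, 82.6 in Ctrl+OGD, 86.6 in PGC-1α and 66.1 in PGC-1α+OGD. On that measure PGC-1α+OGD was the lowest library, with a log2 fold change of -0.32 against Ctrl+OGD and -0.39 against PGC-1α. Whether the exon of Stk11-210 was read directly cannot be seen from values per transcript, and the program that divided the reads among transcripts is not given in the sources used here. The exons of Stk11 also overlap those of Cbarp on the opposite strand. The libraries were stranded, but whether the counting used strand is not stated, and the part of Cbarp in these values was not tested.

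**Figure D4:**
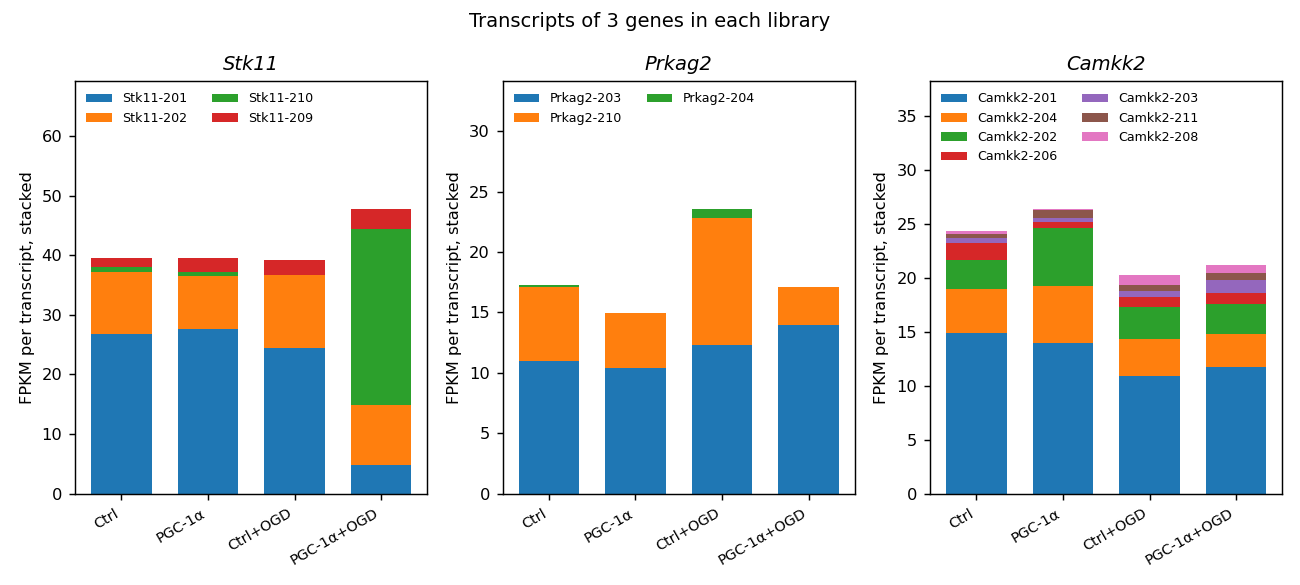
FPKM of the deposited transcripts of Stk11, Prkag2 and Camkk2, stacked in each of the 4 libraries, with axes from 0. In Stk11, Stk11-210 (green) fills 62.0% of the PGC-1α+OGD bar and at most 2.08% of the others, while in Camkk2 the same transcript, Camkk2-201, is the largest in all libraries.

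Camkk2 (ENSMUSG00000029471, minus strand of chromosome 5, from 122731170 to 122779409) encodes the calcium- and calmodulin-dependent kinase upstream of AMPK. It was at 24.4 FPKM in Ctrl, 20.3 in Ctrl+OGD, 26.4 in PGC-1α and 21.2 in PGC-1α+OGD. Both OGD libraries were below both libraries without OGD, with log2 fold changes of -0.25 in control cells and -0.31 in PGC-1α cells, neither of which was past 1.5-fold. With transcripts weighted by length these values were -0.35 and -0.37. Prkab2 was the only other AMPK gene in which both OGD libraries lay below both libraries without OGD. The full-length transcript of 588 codons, Camkk2-201, was at 14.9 FPKM in Ctrl, 10.9 in Ctrl+OGD, 13.9 in PGC-1α and 11.7 in PGC-1α+OGD, and the OGD libraries were again the lower ones. The truncated Camkk2-202, of 5 exons and 216 codons, was highest in PGC-1α, at 5.40 FPKM, and was between 2.69 and 2.92 FPKM in the other 3 libraries. Its log2 fold change in PGC-1α vs Ctrl was 0.79. The other 5 Camkk2 transcripts in the table reached at most 5.27 FPKM.

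Of the 20 AMPK transcripts, 16 had a mean of at least 1 FPKM. In PGC-1α vs Ctrl, 2 of these 16 were past 1.5-fold, Camkk2-202 upward and Camkk2-206 downward, where 25.4% of all compared transcripts were. In PGC-1α+OGD vs Ctrl+OGD there were 3, Stk11-210 upward and Stk11-201 and Prkag2-210 downward, against 22.3% of all transcripts. In Ctrl+OGD vs Ctrl there were 2, Prkag2-210 upward and Stk11-210 downward from 0.820 FPKM to a listed 0, against 28.1%. Stk11-210 passed the minimum mean only through PGC-1α+OGD, a library outside this comparison, so its call here rests on values below 1 FPKM. In PGC-1α+OGD vs PGC-1α there were 4, Stk11-210 upward and Stk11-201, Camkk2-202 and Camkk2-204 downward, against 25.3%. In both comparisons with PGC-1α+OGD, Stk11-210 was compared only because of its level in that library, so its upward call there is only a description. These 4 counts correspond to between 12.5% and 25% of the AMPK transcripts, against 22.3% to 28.1% of all transcripts. With 16 transcripts, several of them from the same gene and so not independent, these counts are near the background. They do not show that AMPK transcripts differed less than others.

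Exact stretches shared with other genes were short. In windows of 50 bases, 0 of those in the AMPK transcripts were found in transcripts of any other gene in GENCODE release M21, the paralogs included. The longest exact run shared by Prkab1 and Prkab2 is 23 bases, and that shared by Prkag1 and Prkag2 is 15 bases. RefSeq promoter windows of 300 bases on GRCm38.p6 were available for all 8 genes, 10 in all, because Prkag2 has 3 start sites. Their GC content ranged from 50.3% to 82%, against a median of 52.7% over 32851 windows. The letters AAGGTCA, the core of the element bound by the estrogen-related receptors with which PGC-1α cooperates, were searched on both strands. They were found in 1 of the 10 windows and in 4.72% of all windows. GCATGCG, part of the palindrome bound by nuclear respiratory factor 1, was found in 0 of the 10 windows and in 3.58% of all windows. The window with a match belongs to the middle start site of Prkag2 (chr5:24995704-24996003, minus strand), of which no transcript had a row in the table, whereas Prkag2-203 and Prkag2-210 start at the site furthest downstream. It is printed with the match, on the opposite strand, in capitals.
Prkag2, middle start site: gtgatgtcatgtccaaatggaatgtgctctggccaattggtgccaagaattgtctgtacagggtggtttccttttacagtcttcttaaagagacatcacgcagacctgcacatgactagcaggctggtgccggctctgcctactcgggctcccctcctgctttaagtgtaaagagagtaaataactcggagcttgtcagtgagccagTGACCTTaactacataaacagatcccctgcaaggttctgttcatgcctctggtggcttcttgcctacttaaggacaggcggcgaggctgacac

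Around the kinase itself, 90 genes of 5 groups were examined, of which 78 were compared. In PGC-1α vs Ctrl, 7 of them were at least 1.5-fold higher and 7 at least 1.5-fold lower, where 4.91% and 5.63% of all genes were. In PGC-1α+OGD vs Ctrl+OGD the counts were 5 higher and 1 lower, with 3.08% and 3.82% of all genes. In Ctrl+OGD vs Ctrl they were 4 higher and 11 lower, with 6.20% and 7.71%, and in PGC-1α+OGD vs PGC-1α they were 5 higher and 4 lower, with 3.82% and 5.22%. Ppargc1a, the overexpressed gene, is counted among the higher genes in both comparisons of PGC-1α with control, which follows from the design. It is also counted among the lower genes in both comparisons of OGD. In Ctrl+OGD vs Ctrl that call rests on values below 1 FPKM. The groups were written from general knowledge of the pathway, with earlier results of these data known. Nothing particular to a group can be read from these counts.

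A group of 20 genes held activators, scaffolds or binding partners of AMPK. The group includes Flcn, Fnip1 and Fnip2, and not all of its members activate AMPK, so its direction is not one of activation. In PGC-1α vs Ctrl, where 4.91% of all genes were higher and 5.63% lower, 0 of the group were higher and 4 were lower. These were Stradb, a pseudokinase partner that activates LKB1 (9.44 FPKM to 5.01 FPKM, log2 fold change -0.80), the stress-induced sestrin Sesn2 (23.8 FPKM to 14.5 FPKM, -0.68), the kinase gene Map3k7, which encodes TAK1 (12.9 FPKM to 7.78 FPKM, -0.66), and the adiponectin receptor gene Adipor2 (43.1 FPKM to 27.1 FPKM, -0.65). Under OGD, Stradb was again lower with PGC-1α, at 3.13 FPKM against 6.01 FPKM in the control (-0.76), and it was the only gene of this group past 1.5-fold. The remaining partners in the LKB1 complex were close to level in both comparisons, with log2 fold changes of -0.02 and 0.00 for the pseudokinase gene Strada and of 0.14 and 0.17 for the scaffold gene Cab39. From here on, the most abundant transcript of a gene is the one with the highest mean over the libraries, which need not be the main one in each library. With it in place of the sum, the values of Stradb were -0.54 without OGD and 0.046 with OGD, both short of 1.5-fold. With transcripts weighted by length they were -1.24 and -1.16. The median log2 fold change of the group was -0.03 without OGD and -0.04 with OGD.

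Of 8 compared phosphatase and ubiquitin ligase genes that oppose AMPK, 1 was higher in PGC-1α vs Ctrl, the ubiquitin ligase gene Ube2o (11.0 FPKM to 18.3 FPKM, log2 fold change 0.69), and 0 were past 1.5-fold under OGD. Of 9 compared kinases that are related to AMPK and also phosphorylated by LKB1, 1 was higher without OGD, Snrk (7.18 FPKM to 12.5 FPKM, 0.72), and 0 were past 1.5-fold under OGD. Of all genes, 4.91% were higher in PGC-1α vs Ctrl, and a count of 1 in so small a group says nothing about the group. As sums, Ube2o and Snrk were both higher in the PGC-1α library than in the other 3. The Snrk transcript with the highest mean over the libraries differed far more, with 3.13 in PGC-1α vs Ctrl and 2.75 in Ctrl+OGD vs Ctrl, where the sum gave 0.21. These values are for 1 transcript and not for the gene.

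The enzymes that set the balance of adenine nucleotides, to which the γ subunit responds, had 9 compared genes. Of these, 2 were higher in PGC-1α vs Ctrl, where 4.91% of all genes were. They were the adenylate kinase gene Ak1 and the AMP deaminase gene Ampd3. Ak1 was at 31.2 FPKM in Ctrl, 32.7 in Ctrl+OGD, 55.7 in PGC-1α and 43.2 in PGC-1α+OGD, with log2 fold changes of 0.82 without and 0.39 with OGD. Ampd3 was at 15.4, 17.8, 26.3 and 24.7 FPKM in the same order, with log2 fold changes of 0.74 and 0.45. In both genes the PGC-1α libraries lay above both control libraries. The most abundant Ak1 transcript alone, at 0.57 in PGC-1α vs Ctrl, was just short of 1.5-fold. That of Ampd3 was past it in PGC-1α+OGD vs Ctrl+OGD (1.48) and, downward, in Ctrl+OGD vs Ctrl (-0.71). The median of the group was 0.21 without OGD and 0.11 with OGD, where the medians of all genes were -0.03 and -0.01.

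Among 32 compared genes for substrates of AMPK, 3 were higher and 3 were lower in PGC-1α vs Ctrl, against 4.91% and 5.63% of all genes. The higher genes were Ppargc1a itself, the histone deacetylase gene Hdac7 (4.27 FPKM to 11.0 FPKM, log2 fold change 1.19) and Tbc1d4, a regulator of glucose transporter traffic (1.30 FPKM to 3.21 FPKM, 0.87). The lower ones were Rptor, which encodes the mTOR partner raptor (6.99 FPKM to 0.444 FPKM, -2.47), Hdac5 (18.8 FPKM to 6.63 FPKM, -1.38) and the kinesin gene Kif5a (6.55 FPKM to 3.69 FPKM, -0.69). Under OGD, where 3.08% of all genes were higher with PGC-1α and 3.82% lower, 5 substrate genes were higher and 0 were lower. Besides Ppargc1a, these were Rptor (1.53 FPKM to 8.68 FPKM, 1.94), Pfkfb2, which makes the activator of phosphofructokinase (0.795 FPKM to 2.70 FPKM, 1.05), Hdac7 (5.18 FPKM to 9.40 FPKM, 0.75) and the CREB coactivator gene Crtc2 (6.34 FPKM to 10.9 FPKM, 0.70). Acacb, the mitochondrial acetyl-CoA carboxylase gene, was just short of 1.5-fold in that comparison, with a log2 fold change of 0.58. Hdac7 was higher with PGC-1α in both comparisons, which share no library. The calls of Kif5a, Pfkfb2 and Hdac5 depended on the summing. The most abundant Kif5a transcript was higher in PGC-1α vs Ctrl (0.48), and that of Pfkfb2 was short of 1.5-fold under OGD (0.53). The most abundant Hdac5 transcript was also lower with PGC-1α under OGD (-0.81), where the sum gave -0.11. OGD itself went with 1 higher and 8 lower substrate genes in control cells, against 6.20% and 7.71% of all genes. In PGC-1α cells it went with 3 higher and 2 lower, against 3.82% and 5.22%. Ppargc1a is counted among the lower genes in both. In control cells its call rests on values below 1 FPKM, since it passed the minimum mean only through the PGC-1α libraries. Pfkfb2, at 3.98 FPKM in Ctrl and 0.795 FPKM in Ctrl+OGD (-1.47), and Hdac5, at 18.8 FPKM and 9.85 FPKM (-0.87), were among the lower genes. The median of the substrate group was -0.05 without OGD and 0.05 with OGD.

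**Figure D5:**
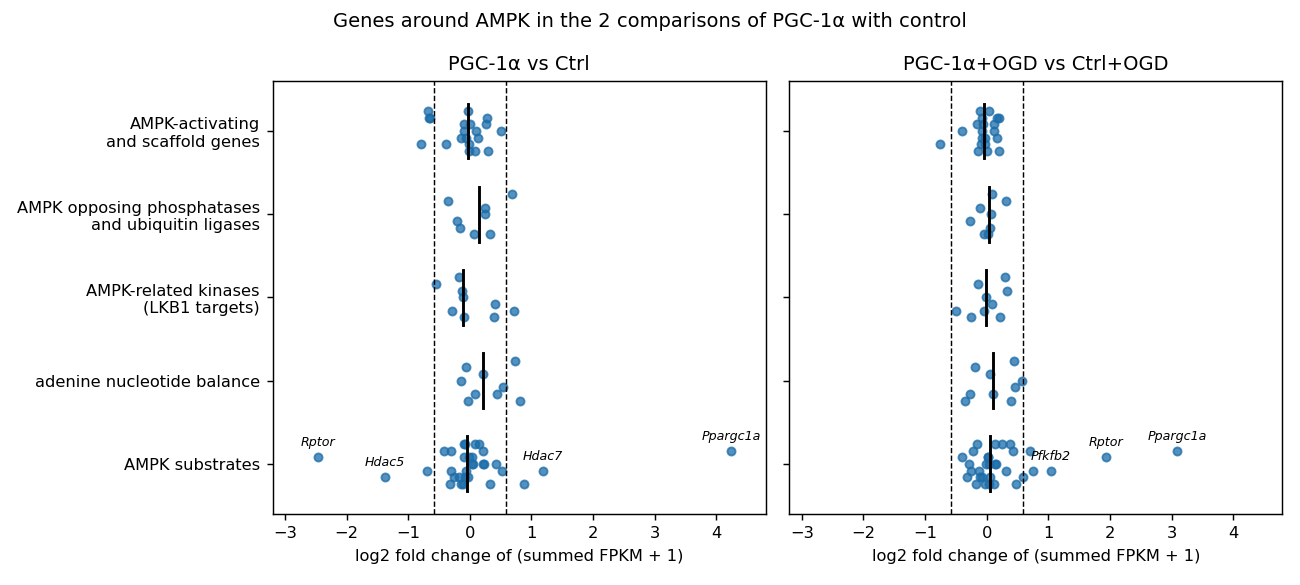
Log2 fold change of each compared gene in the 5 groups around AMPK, for PGC-1α vs Ctrl (left) and PGC-1α+OGD vs Ctrl+OGD (right), with the group median as a black bar and 1.5-fold as dashed lines. Genes beyond a log2 fold change of 1 are named, and Rptor is at -2.47 on the left and 1.94 on the right.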

How the data were processed

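RNA-Seq data of 4 HT-22 libraries, 1 per group, were used, and each group was taken from its sample record. The authors enriched poly(A) RNA, made stranded libraries, mapped the paired reads to GRCm38 (HISAT2 2.1.0 per the submitters' processing notes) and deposited a table of transcripts. Its deposited values are treated here as FPKM. The unit, quantifier and annotation are not given in the sources used here, but the values are 0 or above and sum to between 331892 and 353381 FPKM per library. Each transcript listed has 0.500 FPKM or more in some library.

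Of 25889 transcripts, 25822 were found in GENCODE release M21 once versions were removed. FPKM was summed per gene symbol, genes averaging 1 FPKM or more were compared as log2(FPKM + 1) without further scaling, and a difference was counted from 1.5-fold, the fold criterion of the study. With 1 library per group, no p values were computed. The genes and the lists were chosen with earlier results of these data known. Named are the AMPK genes with their transcripts, list genes past 1.5-fold in either comparison of PGC-1α with control, the 3 genes nearest in pattern to the AMPK gene of widest range, and Ppargc1a. Strada, Cab39, Acacb, Prkag3 and the example markers were chosen after their values were seen. Promoters were taken from RefSeq and transcript sequences from GENCODE. A planned comparison of protein sequences was not made.

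Alternatives were pseudocounts of 0.1 and 0.01, no filter, a minimum mean of 5 FPKM, the highest transcript of each gene, median ratio and upper quartile scaling and a fold of 2. The highest transcript is the one with the highest mean over the libraries. Weighting transcripts by length was added after the data were seen. Scripts in Python 3.11.15 with numpy 2.4.6, pandas 2.3.3 and, for figures, matplotlib 3.10.9 were tested on simulated data.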

Additional observations from a re-analysis of the deposited data

Results flagged for a closer look

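Of 23 genes and 15 AMPK transcripts examined, Rptor, a substrate of AMPK and a partner of mTOR, was past 1.5-fold in opposite directions in the comparisons of PGC-1α with control. Its summed level was at 6.99 FPKM in Ctrl, 1.53 in Ctrl+OGD, 0.444 in PGC-1α and 8.68 in PGC-1α+OGD. With PGC-1α, it differed by a log2 fold change of -2.47 without OGD and 1.94 with OGD, a difference of 4.40. The log2 fold change of OGD was -1.66 in control cells and 2.75 in PGC-1α cells, which is the same difference of 4.40. With 1 library per group this difference was not tested. With transcripts weighted by length the same 4 values were -3.58, 5.03, -4.72 and 3.89, and with the most abundant transcript -2.47, 3.28, -2.998 and 2.75. The transcript Stk11-210 was not examined in this way, since it is listed at 0 in Ctrl+OGD, and its levels are given with the other transcripts of Stk11.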

How the results depend on the processing

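The count of AMPK genes past 1.5-fold was 0 in each of the 4 comparisons and kept that value under 31 of 36 combinations of comparison and alternative. In PGC-1α+OGD vs PGC-1α it was 1 with a pseudocount of 0.1 (Prkab2, log2 fold change -0.71), 1 with a pseudocount of 0.01 (Prkab2, -0.73) and 1 with transcripts weighted by length (Prkab2, -0.68). With the highest transcript in place of the sum it was 1 in that comparison (Stk11, -2.33) and 1 in PGC-1α+OGD vs Ctrl+OGD (Stk11, -2.15). Both values of Stk11 reverse the direction of the sum, since the highest transcript is Stk11-201. The highest transcript also reversed Kif5a in PGC-1α vs Ctrl (0.48) and in PGC-1α+OGD vs Ctrl+OGD (0.85), Stradb in PGC-1α+OGD vs Ctrl+OGD (0.046) and Ampd3 in Ctrl+OGD vs Ctrl (-0.71). Under median ratio and upper quartile scaling the AMPK genes lay between -0.53 and 0.45, and no scaling moved the median of all genes by more than 0.1. With a minimum mean of 5 FPKM, Prkab2 has no value.

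Taken in the order of PGC-1α without and with OGD and then of OGD in control and in PGC-1α cells, 1118, 732, 1475 and 958 of all genes were past 1.5-fold and 318, 222, 364 and 303 past 2-fold. With the highest transcript, 1785, 1364 and 1690 were past 1.5-fold in the first, second and last of these, and with a mean of at least 5 FPKM 731, 433 and 570 were. Of the pathway genes, 14, 6, 15 and 9 were past 1.5-fold and 4, 3, 3 and 3 past 2-fold, 15 in the last comparison with either other pseudocount, and in the second 12 with the highest transcript and 10 with weighting by length. The 1.5-fold counts of pathway genes include Ppargc1a, the overexpressed gene, in all 4 comparisons. No paired analysis was possible because each group had 1 library, so that no groups share more than 1 replicate number. Read numbers are unknown, so the precision of low genes such as Prkab2 could not be estimated.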

Other observations

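Prkag3, which encodes the γ3 subunit known from skeletal muscle, was looked up after the values of the other subunits had been seen. Its single transcript in the table was at 0.659 FPKM in Ctrl, 2.02 in Ctrl+OGD, 1.08 in PGC-1α and 0.966 in PGC-1α+OGD. Ctrl+OGD was the highest library, with a log2 fold change of 0.86 against Ctrl. PGC-1α+OGD differed from Ctrl+OGD by -0.62 on the same scale. The mean of 1.18 FPKM passed the minimum only through Ctrl+OGD, the library where Prkag3 is high. No call at 1.5-fold is therefore made, and without a read count the precision is unknown. The levels of Prkag3 are far below those of Prkag1 and Prkag2 in every library.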
